A study of Mus musculus with 29 samples.

Results

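Of the 29 arrays of a microRNA overexpression series in C2C12 cells, 6 were compared directly, 3 of cells given a mimic of miR-1 and 3 of cells given a mimic of miR-365. The arrays were taken by their labels, no control array entered the comparison, and every difference below is the miR-1 level minus the miR-365 level on the log2 scale. C2C12 is a mouse myoblast line derived from adult muscle satellite cells, which divides in rich medium and forms myotubes when serum is withdrawn. All cells of both groups were at passage 27, were kept proliferating in DMEM with 10% FBS, and carried no other genetic change named in the labels. The miR-1 cells had received a Qiagen mimic of miR-1, and the miR-365 cells a Qiagen mimic of miR-365, each at 50 nM with Hiperfect reagent, with RNA taken after 36 h. Each group was 3 separate transfections of 1 cell line, so the spread between arrays is that of repeated experiments in that line and not of animals. Arrays of 5 other mimics (miR-34a, miR-22, miR-29a, miR-145 and Let-7b, 3 each, same dose and time) were used only to estimate the spread of each gene. As background levels with no test, the text also gives cells with the AllStar negative control oligonucleotide (6 arrays, 3 transfections with a technical repeat of each, averaged to 3 values) and 1 array each of untransfected myotubes and untransfected myoblasts. AllStar was also given at 50 nM for 36 h. The untransfected myoblasts were proliferating and the myotubes terminally differentiated. All these further cells, the other mimics included, were at passage 27. The level of the microRNAs themselves was not read from these arrays, so how much mimic each culture took up is not known.

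MicroRNAs are loaded into Argonaute proteins and lower messenger RNAs that pair with their seed, bases 2 to 8. miR-1 is made in heart and skeletal muscle under the control of the myogenic factors MyoD and MEF2, accumulates as myoblasts differentiate, and is known for promoting differentiation. miR-365 is not restricted to muscle, is encoded beside miR-193 genes, and has been reported in other cells to lower cyclin D1. A difference between the 2 mimics can therefore reflect a change with either of them. The mature mouse miR-365-3p, shown because it is one of the 2 agents compared, has its seed in capitals. RefSeq places it on GRCm38.p6 at chr16:13453895-13453916 and chr11:79726467-79726488, both on the plus strand, in the genes Mir365-1 and Mir365-2, with the same 22 bases from each.
mmu-miR-365-3p: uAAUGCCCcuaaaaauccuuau

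Across 19938 genes, 2416 were higher with miR-1 (12.1% of the genes tested) and 2729 were higher with miR-365 (13.7%), in all 25.8%, by limma at an adjusted p under 0.05. Of these, 897 were at least 1.5-fold higher with miR-1 and 758 at least 1.5-fold higher with miR-365. The median difference over all genes was −0.0049, on arrays that the deposited normalization had already set to 1 distribution. The 3 miR-1 values lay wholly above or below the 3 miR-365 values for 2302 of the 2416 genes higher with miR-1 and for 2597 of the 2729 higher with miR-365. The share over all genes was not computed. Since most called genes had no overlap, its absence in a called gene adds little to the call. Arrays of the same mimic correlated across genes at 0.9938 to 0.9958 for miR-1 and at 0.996 to 0.9972 for miR-365, against 0.982 to 0.9896 between the mimics. Genes are not independent replicates, and these correlations are a description. miR-1 replicate 3 had the lowest correlations within its group and stood farthest from the miR-365 arrays. A level belongs to 1 probe set and can be set against the same gene on other arrays, not against another gene. In a culture measured in bulk, fewer cells of a kind and less RNA per cell cannot be told apart.

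**Figure D1:**
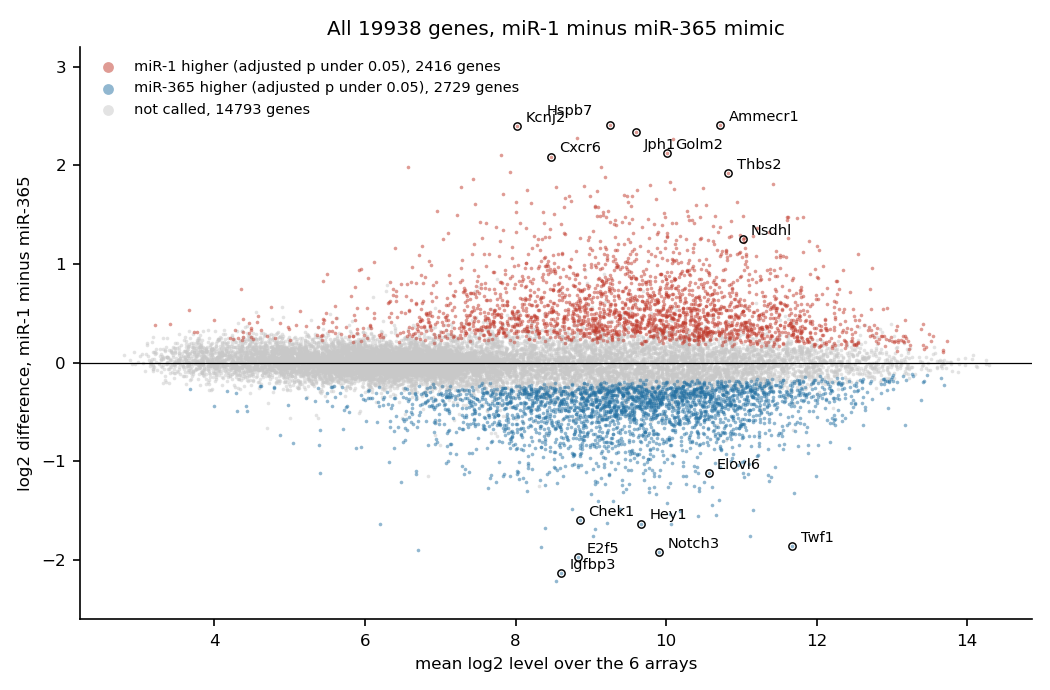
Each point is 1 of 19938 genes, with the mean log2 level over the 6 arrays on the horizontal axis and the log2 difference, miR-1 minus miR-365, on the vertical axis. Red points (2416) were higher with miR-1 and blue points (2729) higher with miR-365 by limma, grey points were not called, and the circled genes are named in the text.

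For orientation, the AllStar mean lay between the 2 mimic means for 1476 (61.1%) of the genes higher with miR-1 and for 1609 (59.0%) of those higher with miR-365. It lay above both mimic means for 300 of the genes higher with miR-1 and for 643 of those higher with miR-365. It lay below both for 640 and 477 genes in the same order of the groups. These positions compare group means only and carry no test. Their shares over all genes tested were not computed. The counts of list members by AllStar position given below therefore have no such share beside them.

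The largest differences toward miR-1 included genes of muscle membranes and the sarcomere. Hspb7, a small heat shock protein of heart and skeletal muscle that binds filamin C, read 9.61, 10.68 and 11.07 with miR-1, against 8.22, 7.79 and 8.12 with miR-365. The groups did not overlap, the lowest miR-1 value was that of replicate 1, and the difference was 2.41 ± 0.31 (SE, n = 3 each; adjusted p = 4.13e-06, limma). Jph1, junctophilin 1, which ties the transverse tubule to the sarcoplasmic reticulum, read 10.67, 10.65 and 10.98 with miR-1, against 8.58, 8.43 and 8.27 with miR-365, a difference of 2.34 ± 0.11 (adjusted p = 9.29e-12). Kcnj2, an inward rectifier potassium channel that sets the resting potential of myoblasts before fusion, read 9.24, 9.26 and 9.16 with miR-1, against 6.39, 7.31 and 6.76 with miR-365, a difference of 2.40 ± 0.21 (adjusted p = 3.39e-08). Kcnj2 was also among genes reported as targets of miR-1 in the heart, and here it stood higher with miR-1 than with miR-365 and than the AllStar mean of 7.47. Casq1, the calcium store protein of the sarcoplasmic reticulum, read 8.71, 9.43 and 10.16 with miR-1, against 7.77, 7.35 and 7.83 with miR-365, a difference of 1.78 ± 0.32 (adjusted p = 0.000192), with the AllStar mean at 8.27.

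Other genes with the largest differences toward miR-1 stood low with miR-365. Ammecr1, whose function is not well known, had the largest difference toward miR-1, with 11.94, 11.93 and 11.91 with miR-1, against 9.56, 9.71 and 9.27 with miR-365, a difference of 2.41 ± 0.10 (adjusted p = 3.28e-12) and an AllStar mean of 11.36. Golm2, a Golgi membrane protein, read 10.94, 11.03 and 11.23 with miR-1, against 8.87, 9.13 and 8.84 with miR-365, with an AllStar mean of 10.93, just below the lowest miR-1 value. Suclg2, a subunit of the GTP-forming succinyl-CoA ligase of mitochondria, and Thbs2, thrombospondin 2, a secreted matrix protein, also had AllStar means close to the miR-1 arrays: their means were 10.13 ± 0.19 with miR-1 and 8.15 ± 0.34 with miR-365 for Suclg2 and 11.79 ± 0.22 with miR-1 and 9.86 ± 0.24 with miR-365 for Thbs2, with AllStar means of 9.99 and 11.46. Prkx, a protein kinase related to protein kinase A, Maf, a basic leucine zipper transcription factor, and Kctd9 had AllStar means farther below miR-1. These means were 11.66, 9.77 and 10.36, also between the 2 mimics, and the differences were 1.81 ± 0.08, 1.83 ± 0.12 and 2.26 ± 0.14. Hpgd, Cxcr6, Loxl4 and Fgf7 were high with miR-1 and had AllStar means within or below the miR-365 values. Hpgd, the enzyme that inactivates prostaglandins, averaged 9.95 ± 0.48 with miR-1 and 7.67 ± 0.50 with miR-365, with an AllStar mean of 6.39. Cxcr6, a chemokine receptor, averaged 9.51 ± 0.44 with miR-1 and 7.42 ± 0.82 with miR-365, with an AllStar mean of 6.75, and Loxl4, a lysyl oxidase-like enzyme that crosslinks matrix, averaged 10.13 ± 0.79 with miR-1 and 8.25 ± 0.08 with miR-365, with an AllStar mean of 8.22. Fgf7, a secreted fibroblast growth factor, averaged 8.89 ± 0.56 with miR-1 and 6.97 ± 0.32 with miR-365, with an AllStar mean of 7.16. The 20 largest differences toward miR-1 ran from 2.41 to 1.78, and the 3 values of each group did not overlap for any of them, which the rule for naming them required.

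Toward miR-365 the largest differences included regulators of signalling and the cell cycle. Igfbp3, a binding protein of insulin-like growth factors, read 7.42, 7.84 and 7.34 with miR-1, against 9.20, 10.05 and 9.76 with miR-365, a difference of −2.14 ± 0.21 (adjusted p = 1.28e-07), and its AllStar mean of 7.76 lay within the miR-1 values. E2f5, a repressive E2F transcription factor that partners the pocket proteins p130 and p107, read 8.02, 7.87 and 7.67 with miR-1, against 9.88, 9.68 and 9.91 with miR-365, a difference of −1.97 ± 0.10 (adjusted p = 2.45e-11). Notch3, a Notch receptor, read 9.03, 9.34 and 8.47 with miR-1, against 10.72, 10.98 and 10.90 with miR-365, a difference of −1.92 ± 0.22 (adjusted p = 1.14e-06). All 3 miR-1 values lay below all 3 miR-365 values in each of these genes, and the AllStar means of E2f5 (9.48) and Notch3 (10.26) lay between the groups, nearer to miR-365. Twf1, twinfilin 1, which caps actin filaments and holds actin monomers, read 10.93, 11.02 and 10.29 with miR-1, against 12.54, 12.55 and 12.72 with miR-365, a difference of −1.86 ± 0.12 (adjusted p = 4.70e-10), with an AllStar mean of 12.26.

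The same layout, an AllStar mean close to miR-365 and a low level with miR-1, held for Srsf9, a splicing factor, with means of 9.89 ± 0.27 with miR-1 and 11.44 ± 0.06 with miR-365 and 11.38 with AllStar, and for Uhmk1, a kinase of splicing factors, with means of 9.64 ± 0.21 with miR-1 and 11.20 ± 0.08 with miR-365 and 11.07 with AllStar. Cxcl13, a chemokine that attracts B cells, and Pdcd4, an inhibitor of translation initiation, stood high with miR-365 instead. Cxcl13 averaged 8.15 ± 0.09 with miR-1 and 9.91 ± 0.63 with miR-365, with an AllStar mean of 7.53, and Pdcd4 averaged 9.44 ± 0.21 with miR-1 and 10.94 ± 0.23 with miR-365, with an AllStar mean of 9.99. Dusp9, a MAP kinase phosphatase, Sting1, the adaptor of cytosolic DNA sensing, Chmp1b, a subunit of the ESCRT-III membrane scission complex, and Scn7a, a sodium channel family member, differed by −1.69 ± 0.14, −1.53 ± 0.12, −1.68 ± 0.17 and −1.87 ± 0.23, each below the miR-365 values in all 3 miR-1 arrays. The 20 largest differences toward miR-365 ran from −2.21 for 1700007K13Rik to −1.50 for Pdcd4.

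Gene lists of muscle, metabolism, the cell cycle and signalling were then read through the same fit, as counts of called members beside the shares over all genes (12.1% higher with miR-1 and 13.7% higher with miR-365). Muscle structure, calcium handling, sterol synthesis and hypoxia genes lay toward miR-1, and replication, repair and mitosis genes lay toward miR-365. Fatty acid synthesis, myogenic factors and G1 control genes went both ways.

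**Figure D2:**
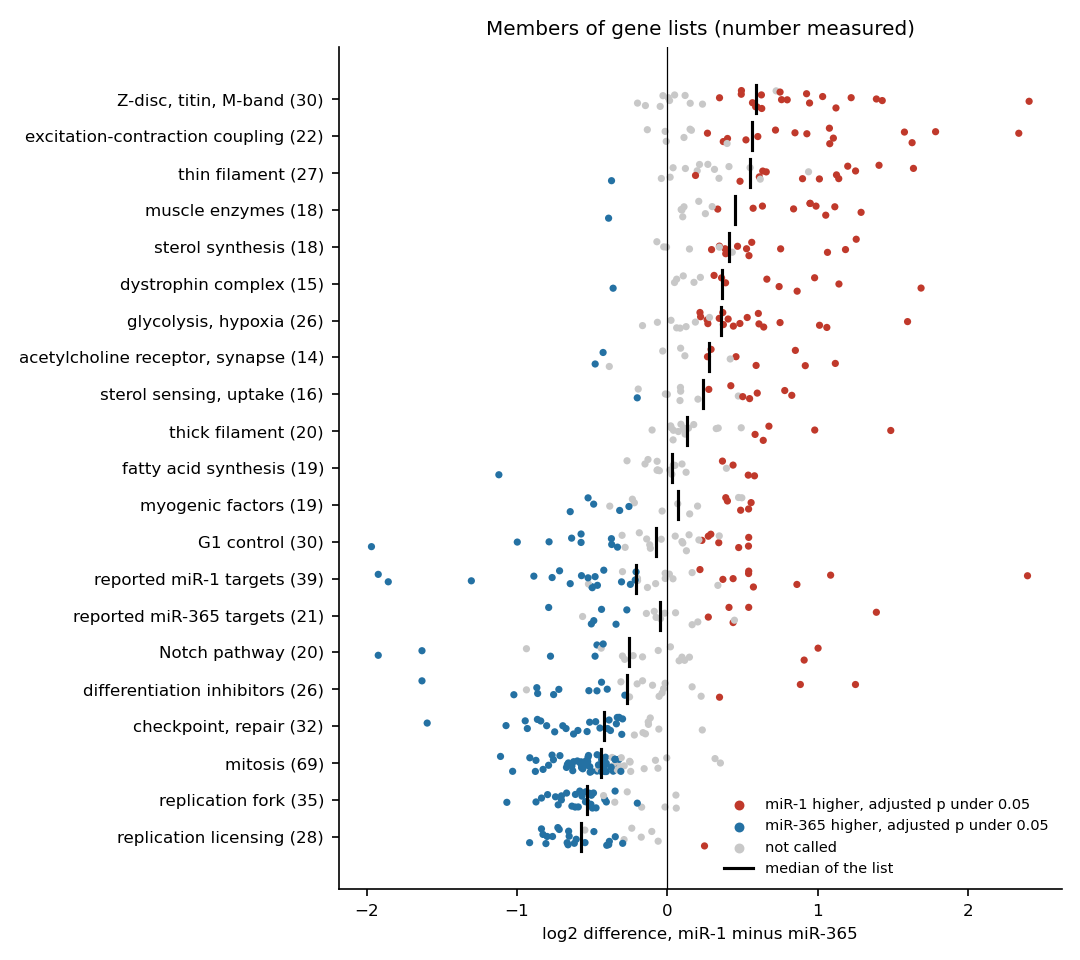
Each point is a member of a gene list, placed by its log2 difference, miR-1 minus miR-365. Red members were higher with miR-1, blue members higher with miR-365, grey members were not called, black bars are list medians, and the number of measured members stands in brackets. Medians run from 0.59 for the Z-disc list to −0.58 for replication licensing.

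The myogenic transcription factors drive muscle genes through E-boxes and MEF2 sites, and of 19 measured members of that list 5 were higher with miR-1 and 5 higher with miR-365 (26.3% each, median 0.07). With the replicate number added to the fit, a replicate block, 8 were higher with miR-1 and 8 higher with miR-365. The MEF2 proteins work with MyoD on muscle promoters, and the genes of 2 of them were higher with miR-1. Mef2a read 12.57, 12.59 and 12.56 with miR-1, against 11.92, 12.17 and 12.01 with miR-365, a difference of 0.54 ± 0.06 (adjusted p = 1.66e-06), with an AllStar mean of 11.93. Mef2d read 12.14, 11.82 and 12.08 with miR-1, against 11.61, 11.47 and 11.50 with miR-365, a difference of 0.49 ± 0.11 (adjusted p = 0.0026), and no value of one group reached the other in either gene. Mef2c read 9.16, 9.75 and 10.12 with miR-1, against 9.26, 8.96 and 9.31 with miR-365, overlapped between the groups, and was not called (difference 0.50 ± 0.22, adjusted p = 0.108), but passed without miR-1 replicate 1 (adjusted p 0.0109). Myod1, the MyoD gene, and Myog, myogenin, which acts later in differentiation, were not called either, with differences of −0.22 ± 0.14 (adjusted p = 0.303) and 0.47 ± 0.28 (adjusted p = 0.267). With the replicate block Mef2c, Myod1 and Myog were called (adjusted p = 0.0203, 0.0221 and 0.0202, limma). The 3 myogenin values with miR-1 were 10.65, 11.20 and 10.73 and those with miR-365 10.25, 10.76 and 10.14, both above the AllStar mean of 9.76. Six4, a homeodomain factor of muscle progenitors, was higher with miR-1 by 0.56 ± 0.14 (adjusted p = 0.0054). The paired box factors of muscle stem cells lay toward miR-365. Pax7 read 8.42, 8.93 and 8.38 with miR-1, against 9.14, 9.35 and 9.18 with miR-365, a difference of −0.65 ± 0.13 (adjusted p = 0.000582), and Pax3 differed by −0.53 ± 0.08 (adjusted p = 1.88e-05). Myf5, the early determination factor, read 10.27, 9.95 and 9.94 with miR-1, against 10.40, 10.58 and 10.65 with miR-365, a difference of −0.49 ± 0.11 (adjusted p = 0.0015), and Tcf12, an E-protein partner of MyoD, differed by −0.32 ± 0.07 (adjusted p = 0.0027).

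Sarcomere genes were higher with miR-1 in 37 of 77 measured members (48.1%) and higher with miR-365 in 1, with a median difference of 0.49. Averaged over the list, the log2 level was 9.41, 9.72 and 9.76 in the miR-1 arrays, against 9.20, 9.02 and 9.10 in the miR-365 arrays, with no overlap, and it averaged 9.07 with AllStar. The single array of untransfected myotubes stood at 11.18 and that of untransfected myoblasts at 10.26, above every transfected array of both groups, and 67 of the 77 members were higher in the myotube array than in the myoblast array. miR-1 replicate 1 was the lowest of its group for this list. The Z-disc, titin and M-band list had 19 of 30 members higher with miR-1 (63.3%) and 0 with miR-365. It includes proteins that anchor thin and thick filaments but is not limited to them. Ldb3, a Z-disc PDZ protein, read 9.88, 10.16 and 10.05 with miR-1, against 8.78, 8.48 and 8.66 with miR-365, a difference of 1.39 ± 0.11 (adjusted p = 7.51e-09). Myom1, myomesin, which crosslinks myosin at the M-band, read 7.82, 8.35 and 8.57 with miR-1, against 6.79, 6.98 and 6.69 with miR-365, a difference of 1.43 ± 0.17 (adjusted p = 1.76e-06). Ttn, titin, the elastic filament of the sarcomere, read 10.28, 10.75 and 10.40 with miR-1, against 8.91, 9.68 and 9.48 with miR-365, a difference of 1.12 ± 0.23 (adjusted p = 0.000698). In all 3 genes the miR-1 values stayed above the miR-365 values, and the myotube array was higher still, at 11.97, 10.76 and 12.03. Desmin (0.01 ± 0.06) and telethonin (Tcap, 0.01 ± 0.11) gave small differences that were not called (adjusted p = 0.913 and 0.984).

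Thin filament genes were higher with miR-1 in 13 of 27 members (48.1%) and higher with miR-365 in 1 (median 0.55). Nrap, an actin-binding protein of myofibril assembly, read 9.43, 9.61 and 9.62 with miR-1, against 8.14, 7.73 and 7.88 with miR-365, a difference of 1.64 ± 0.12 (adjusted p = 4.31e-09). Tmod1, tropomodulin 1, which caps the pointed ends of thin filaments, read 9.01, 9.27 and 9.66 with miR-1, against 8.04, 7.70 and 7.97 with miR-365, a difference of 1.41 ± 0.13 (adjusted p = 7.53e-08). Across the alternative fits the Tmod1 difference ran from 0.73 to 1.56, so its size depended on the processing, while its call was kept. The leiomodins, which nucleate and lengthen thin filaments, differed by 1.25 ± 0.15 (Lmod2, adjusted p = 2.32e-06) and 1.14 ± 0.21 (Lmod3, adjusted p = 0.000241), and Actn2, sarcomeric alpha-actinin, by 1.20 ± 0.23 (adjusted p = 0.000462). The groups did not overlap in any of these 5 genes. The member higher with miR-365 was Tpm3, a tropomyosin also made in non-muscle cells, with 12.69, 12.50 and 12.48 with miR-1, against 12.95, 12.90 and 12.93 with miR-365, a difference of −0.37 ± 0.05 (adjusted p = 8.68e-06). Tnnt2, the troponin T of embryonic and cardiac muscle, differed by 0.04 ± 0.11 and was not called (adjusted p = 0.879).

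Thick filament genes were higher with miR-1 in 5 of 20 members (median 0.13). Mylk2, the myosin light chain kinase of skeletal muscle, read 9.99, 9.48 and 10.13 with miR-1, against 8.47, 8.32 and 8.34 with miR-365, a difference of 1.49 ± 0.17 (adjusted p = 1.35e-06), with an AllStar mean of 8.02. Mybph, myosin binding protein H, differed by 0.68 ± 0.14 (adjusted p = 0.000659). The other called members rested on single arrays. Myh1, an adult fast myosin heavy chain, differed by 0.98 ± 0.29 (adjusted p = 0.016), but its adjusted p was 0.122 without miR-1 replicate 3 and 0.107 without miR-365 replicate 2. Mybpc1, the slow myosin binding protein C, had 0.113 without miR-1 replicate 3 (main adjusted p = 0.0155). Myh8, the perinatal myosin heavy chain, had 0.279 without miR-1 replicate 3, 0.198 without miR-365 replicate 2 and 0.0565 without miR-365 replicate 3 (main adjusted p = 0.0361). The count of 5 was 2 without miR-1 replicate 3 and 3 without miR-365 replicate 2.

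The Ldb3 promoter is shown because Ldb3 had the largest difference among called sarcomere genes whose 300-base promoter holds a MEF2-like match, in capitals at −55 to −46 relative to the start (GRCm38.p6, RefSeq, chr14:34588558-34588857, minus strand, printed 5′ to 3′). The MEF2-like motif searched, looser than a MEF2 site, was CTA and TAG with any 4 bases between them, not only A or T. In Ldb3 these bases are TTCT. The motif reads alike on both strands. It was found in 11 of the 64 sarcomere genes with a promoter in the RefSeq table, 8 of them among 24 Z-disc genes, and in 4.15% of the promoters of 15614 measured genes.
Ldb3: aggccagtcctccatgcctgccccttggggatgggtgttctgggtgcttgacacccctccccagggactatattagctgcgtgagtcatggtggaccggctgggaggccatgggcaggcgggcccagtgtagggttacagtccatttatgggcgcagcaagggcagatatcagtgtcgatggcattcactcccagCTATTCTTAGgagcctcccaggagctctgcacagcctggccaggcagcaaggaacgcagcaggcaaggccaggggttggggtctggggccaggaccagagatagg

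Excitation-contraction coupling genes, which carry the action potential to calcium release and reuptake, were higher with miR-1 in 15 of 22 members (68.2%) and higher with miR-365 in 0 (median 0.56). Trdn, triadin, which holds calsequestrin at the release channel, read 9.61, 10.49 and 10.81 with miR-1, against 8.60, 8.81 and 8.62 with miR-365, a difference of 1.63 ± 0.28 (adjusted p = 0.000136). Casq2, the calsequestrin of cardiac and slow muscle, read 9.39, 9.98 and 10.18 with miR-1, against 8.53, 8.19 and 8.09 with miR-365, a difference of 1.58 ± 0.23 (adjusted p = 2.00e-05). Atp2a1, the fast-muscle calcium pump SERCA1, read 11.38, 11.97 and 11.85 with miR-1, against 10.70, 10.65 and 10.60 with miR-365, a difference of 1.08 ± 0.18 (adjusted p = 0.000126). miR-1 replicate 1 was the lowest miR-1 array for all 3 genes and still lay above every miR-365 array. Clcn1, the muscle chloride channel, and Pvalb, the calcium buffer parvalbumin, differed by −0.01 ± 0.10 and −0.01 ± 0.18 and were not called (adjusted p = 0.98 and 0.976, limma). The Pvalb means, 6.50 with miR-1 and 6.51 with miR-365, lay below 6.64, the median level of probe sets with no listed gene. At that level a missing call says little about the gene.

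The promoter of Casq1, the largest difference among called coupling genes whose promoter holds the E-box CAGCTG, carries that motif at −195 to −190 relative to the start (GRCm38.p6, RefSeq, chr1:172219846-172220145, minus strand, printed 5′ to 3′, match in capitals). CAGCTG reads alike on both strands and is one form of the general E-box CANNTG. The CAGCTG form was found in 6 of 12 coupling, 24 of 64 sarcomere and 9 of 15 muscle enzyme promoters, and in 18.4% of the promoters of all measured genes. The general E-box CANNTG was in 71.6% of all of them.
Casq1: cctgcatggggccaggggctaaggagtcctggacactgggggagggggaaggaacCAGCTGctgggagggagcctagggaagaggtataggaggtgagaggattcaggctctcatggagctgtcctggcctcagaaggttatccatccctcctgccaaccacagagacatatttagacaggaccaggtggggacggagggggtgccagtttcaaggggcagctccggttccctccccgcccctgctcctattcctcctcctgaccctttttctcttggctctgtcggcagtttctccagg

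**Figure D3:**
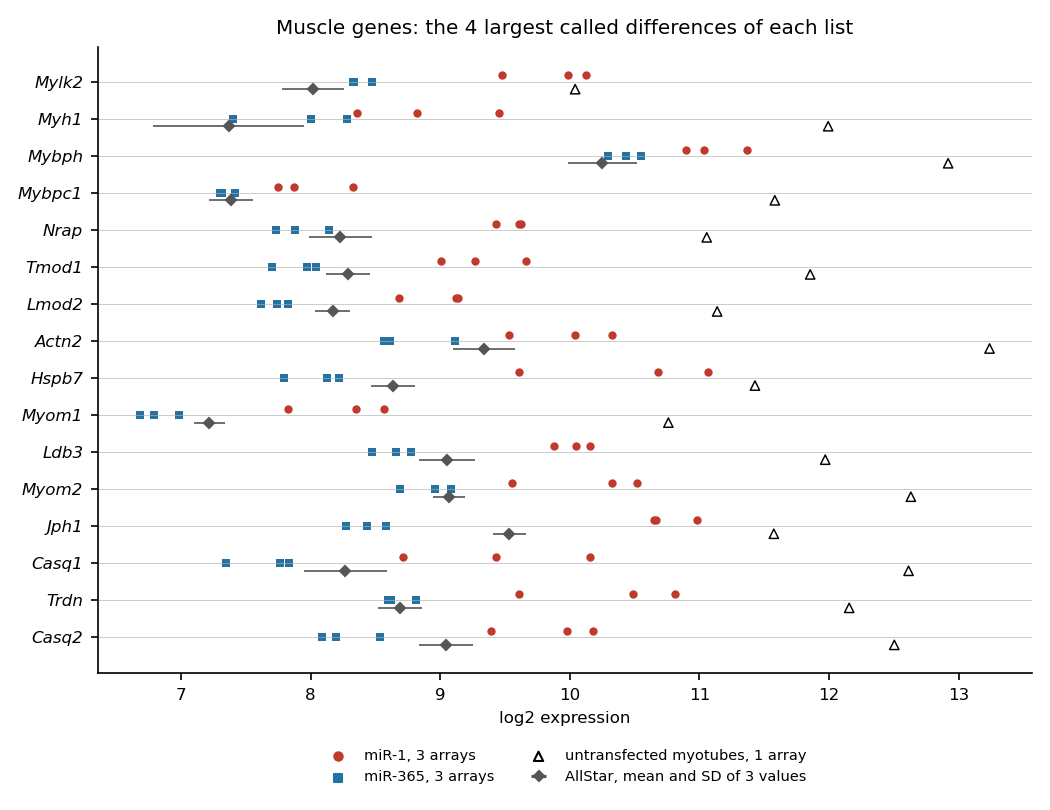
Log2 expression of the 4 largest called differences of the thick filament, thin filament, Z-disc and coupling lists. Red circles are the 3 miR-1 arrays, blue squares the 3 miR-365 arrays, grey diamonds the AllStar mean with its SD (n = 3) and open triangles the single myotube array. The miR-1 points lie right of the miR-365 points in each gene, as for Jph1 at 10.67, 10.65 and 10.98 against 8.58, 8.43 and 8.27, and the myotube array is farther right except for Mylk2.

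Of the acetylcholine receptor and synapse list, 7 of 14 members were higher with miR-1 (50.0%) and 2 with miR-365 (median 0.28). Chrng, the fetal gamma subunit of the receptor, read 10.45, 10.84 and 10.65 with miR-1, against 9.56, 9.44 and 9.58 with miR-365, a difference of 1.12 ± 0.15 (adjusted p = 8.18e-06), and Chrnd, the delta subunit, differed by 0.92 ± 0.10 (adjusted p = 1.02e-06). Colq, the collagen tail of acetylcholinesterase, was higher with miR-365 (−0.43 ± 0.10, adjusted p = 0.0031), as was Agrn, the clustering signal agrin (−0.48 ± 0.15, adjusted p = 0.0233), and 1 of these was called without miR-1 replicate 1 or without miR-365 replicate 1. Of the dystrophin complex, which links the cytoskeleton to the matrix, 9 of 15 members were higher with miR-1 (60.0%) and 1 with miR-365 (median 0.36). Sspn, sarcospan, a membrane protein of that complex, read 9.80, 9.79 and 9.91 with miR-1, against 8.22, 8.39 and 7.83 with miR-365, a difference of 1.69 ± 0.16 (adjusted p = 9.26e-08), with an AllStar mean of 8.99 between the groups. Sntb1, a syntrophin adaptor, differed by 1.14 ± 0.16 (adjusted p = 1.21e-05) and Sgcd, delta-sarcoglycan, by 0.98 ± 0.15 (adjusted p = 3.11e-05). The member higher with miR-365 was Sgce, the broadly expressed epsilon-sarcoglycan (−0.36 ± 0.08, adjusted p = 0.0026). Dystrophin itself (Dmd) differed by 0.11 ± 0.12 and was not called (adjusted p = 0.627, limma). Its means, 5.73 with miR-1 and 5.62 with miR-365, lay below 6.64, the median level of probe sets with no listed gene. At that level a missing call says little about the gene.

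Fusion and adhesion genes were higher with miR-1 in 11 of 29 members (37.9%) and higher with miR-365 in 3 (median 0.16). Boc, a surface receptor that promotes myogenic signalling on cell contact, read 9.93, 9.68 and 10.09 with miR-1, against 8.99, 8.74 and 8.53 with miR-365, a difference of 1.15 ± 0.13 (adjusted p = 6.31e-07). Dysf, dysferlin, which reseals the muscle membrane, differed by 1.11 ± 0.15 (adjusted p = 7.49e-06) and Itga7, the laminin-binding integrin alpha7, by 0.88 ± 0.08 (adjusted p = 5.93e-08). Itga4, the integrin alpha4 subunit that binds VCAM-1 and fibronectin, went the other way, with 8.72, 8.84 and 8.90 with miR-1, against 9.97, 10.05 and 10.02 with miR-365, a difference of −1.19 ± 0.13 (adjusted p = 5.68e-07). M-cadherin (Cdh15) was not called (0.11 ± 0.18, adjusted p = 0.774). Muscle enzymes and energy carriers were higher with miR-1 in 10 of 18 members (55.6%) and higher with miR-365 in 1 (median 0.45). Pdk4, the kinase that switches off pyruvate dehydrogenase, read 11.75, 11.78 and 11.88 with miR-1, against 10.82, 10.22 and 10.51 with miR-365, a difference of 1.29 ± 0.16 (adjusted p = 2.36e-06). Pgam2, the muscle phosphoglycerate mutase, differed by 1.11 ± 0.14 (adjusted p = 4.29e-06) and Ckm, muscle creatine kinase, by 0.95 ± 0.21 (adjusted p = 0.0014). The member higher with miR-365, lipoprotein lipase (Lpl, −0.39 ± 0.14, adjusted p = 0.045), lost its call without miR-1 replicate 1, miR-1 replicate 3, miR-365 replicate 2 or miR-365 replicate 3 (adjusted p 0.109, 0.151, 0.18 and 0.154).

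Genes known to restrain muscle differentiation lay toward miR-365, which was higher in 11 of 26 measured members (42.3%), while miR-1 was higher in 3 (median −0.27). The Id proteins bind E-proteins and keep them from MyoD. Id3 read 10.12, 10.49 and 9.80 with miR-1, against 11.23, 11.11 and 11.14 with miR-365, a difference of −1.02 ± 0.11 (adjusted p = 8.19e-07). Id2 read 12.06, 12.04 and 11.88 with miR-1, against 12.88, 12.82 and 12.88 with miR-365, a difference of −0.87 ± 0.08 (adjusted p = 6.67e-08), and Id1 differed by −0.86 ± 0.12 (adjusted p = 8.11e-06). In Id1, Id2 and Id3 no miR-1 array reached any miR-365 array. The AllStar mean lay between the groups for Id2 (12.61) and Id1 (10.71) and within the miR-365 values for Id3 (11.18). Hey1, a repressor induced by Notch, read 8.83, 9.41 and 8.31 with miR-1, against 10.23, 10.85 and 10.37 with miR-365, a difference of −1.63 ± 0.28 (adjusted p = 0.000162). Snai2, a repressor of the Snail family that blocks E-boxes in myoblasts, differed by −0.76 ± 0.15 (adjusted p = 0.000616). The 3 members higher with miR-1 were Bhlhe40, a repressor of E-box genes, with 10.98, 10.74 and 10.96 with miR-1, against 9.75, 9.53 and 9.64 with miR-365, a difference of 1.25 ± 0.14 (adjusted p = 1.00e-06), and the class IIa histone deacetylases Hdac5 (0.88 ± 0.14, adjusted p = 4.42e-05) and Hdac9 (0.35 ± 0.09, adjusted p = 0.0039). Hdac4, a widely reported miR-1 target that restrains MEF2, differed by 0.16 ± 0.10 and was not called (adjusted p = 0.297), but passed without miR-1 replicate 3 (adjusted p 0.0363) and with the mean of all its probe sets (0.0348). It read 9.85, 9.79 and 9.44 with miR-1, against 9.42, 9.63 and 9.53 with miR-365, with overlap, and its AllStar mean was 9.98, above all 6 arrays.

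In the Notch pathway, whose signalling keeps satellite cells undifferentiated, 6 of 20 members were higher with miR-365 (30.0%) and 2 with miR-1 (median −0.26). With the replicate block 10 were higher with miR-365. Besides the receptor Notch3 and its target gene Hey1, Jag1, a Notch ligand, differed by −0.78 ± 0.16 (adjusted p = 0.0011), Notch2, another receptor, by −0.48 ± 0.09 (adjusted p = 0.000533) and Nrarp, a target gene that damps the pathway, by −0.43 ± 0.11 (adjusted p = 0.0047). The DNA-binding partner Rbpj went toward miR-1, with 11.05, 10.98 and 11.02 with miR-1, against 10.22, 10.19 and 9.92 with miR-365, a difference of 0.91 ± 0.07 (adjusted p = 1.34e-08), and an AllStar mean of 10.89 close to the miR-1 arrays. Across the alternative fits the Rbpj difference ran from 0.43 to 0.97. Its highest adjusted p, 0.0012 by limma, came with the mean of all its probe sets. Hes6, a HES family member that promotes rather than blocks differentiation, was higher with miR-1 by 1.00 ± 0.13 (adjusted p = 6.28e-06). The ligand Dll1 was not called (0.08 ± 0.22, adjusted p = 0.879).

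Cholesterol is built from acetyl-CoA through mevalonate, squalene and lanosterol, by enzymes whose genes are switched on together by SREBP-2 when sterols are low. Of 18 measured genes of the sterol synthesis list 12 were higher with miR-1 (66.7%) and 0 with miR-365, with a median difference of 0.41. The list also holds Ggps1, which belongs to a side branch of the pathway. Averaged over the list, the log2 level was 10.55, 10.35 and 10.35 with miR-1, against 9.83, 9.99 and 9.99 with miR-365. The groups did not overlap. The 3 AllStar values were 10.44, 10.54 and 10.70, around or above the miR-1 arrays, and the AllStar mean exceeded both mimic means in 15 of the 18 genes. Nsdhl, a dehydrogenase that strips methyl groups from the sterol ring, read 11.81, 11.52 and 11.62 with miR-1, against 10.19, 10.55 and 10.43 with miR-365, a difference of 1.26 ± 0.09 (adjusted p = 3.89e-09). Sc5d, the desaturase of a late step, read 10.38, 10.14 and 10.23 with miR-1, against 8.96, 9.13 and 9.11 with miR-365, a difference of 1.19 ± 0.09 (adjusted p = 8.57e-09). Cyp51, the demethylase of lanosterol, read 10.63, 10.35 and 10.45 with miR-1, against 9.30, 9.62 and 9.32 with miR-365, a difference of 1.07 ± 0.14 (adjusted p = 5.59e-06). In these 3 late genes, each miR-1 array stood above each miR-365 array, and the AllStar means (11.77, 10.52 and 10.68) were above the miR-1 means.

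The other called enzymes differed less. Hmgcs1, HMG-CoA synthase, the entry to the pathway, read 11.42, 11.23 and 11.22 with miR-1, against 10.72, 10.78 and 10.79 with miR-365, a difference of 0.53 ± 0.11 (adjusted p = 0.000754). Mvd, the decarboxylase that makes isopentenyl diphosphate, read 9.71, 9.57 and 9.69 with miR-1, against 8.77, 8.95 and 8.99 with miR-365, a difference of 0.75 ± 0.13 (adjusted p = 0.000151), and its miR-1 values lay above the AllStar mean of 9.31. Msmo1, the C4 sterol oxidase, differed by 0.56 ± 0.12 (adjusted p = 0.000828) and Hsd17b7, the ketosteroid reductase of the pathway, by 0.54 ± 0.13 (adjusted p = 0.0039). The smallest calls depended on single arrays. Idi1 (0.47 ± 0.14) had an adjusted p of 0.0149, and 0.127 without miR-1 replicate 1 or 0.0611 without miR-365 replicate 1. Fdps (0.35 ± 0.11) had 0.0184, and 0.0815 without miR-1 replicate 2 or 0.121 without miR-365 replicate 1. Ebp (0.39 ± 0.11) had 0.0092, and 0.0611 without miR-1 replicate 3. Pmvk (0.38 ± 0.12, 0.0261) lost its call without miR-1 replicate 1 (0.158), miR-1 replicate 2 (0.0517), miR-365 replicate 1 (0.0621) or miR-365 replicate 3 (0.102). Sqle (0.29 ± 0.10, 0.0418) lost it without miR-1 replicate 1 (0.237), miR-365 replicate 1 (0.149), miR-365 replicate 2 (0.0501) or miR-365 replicate 3 (0.0838). Lss (0.43 ± 0.17, adjusted p = 0.067), Tm7sf2 (0.35 ± 0.15, 0.113) and Mvk (0.15 ± 0.12, 0.444) were not called. Fdft1, Dhcr7 and Ggps1 had differences between −0.07 and −0.01 and were not called either, with adjusted p of 0.986, 0.932 and 0.636. Lss passed instead without miR-1 replicate 2 (adjusted p 0.046), without miR-1 replicate 3 (0.0388) or without the dimmest 40% of genes (0.0481). The count of 12 stayed between 8 and 12 when any 1 array was left out.

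**Figure D4:**
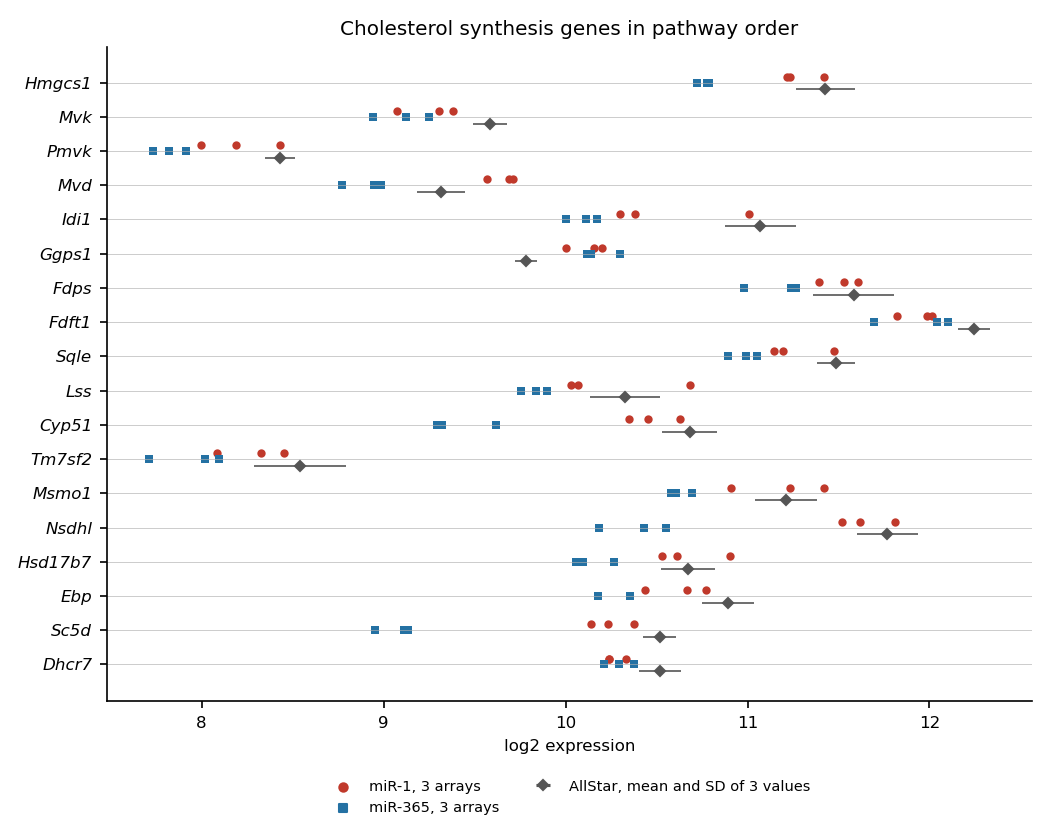
Log2 expression of the 18 measured genes of the sterol synthesis list, roughly in pathway order from top to bottom. Ggps1 belongs to a side branch and is not a step before Fdps. Red circles are the 3 miR-1 arrays, blue squares the 3 miR-365 arrays and grey diamonds the AllStar mean with its SD (n = 3). The widest gaps are at Nsdhl, Sc5d and Cyp51, and AllStar exceeds both mimic means in 15 genes.

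The promoter of Hmgcs1 is shown because it holds the letters TCACNCCAC, a spelling of the sterol element that SREBP proteins bind, at −137 to −129 relative to the start (GRCm38.p6, RefSeq, chr13:119690101-119690400, plus strand, 5′ to 3′, match in capitals). Searched on both strands, this spelling was in 1 of the 15 sterol synthesis promoters in the table, in 0 of 12 promoters of sterol uptake and sensing genes, in 2 of 24 Z-disc promoters and in 1.4% of the promoters of all measured genes.
Hmgcs1: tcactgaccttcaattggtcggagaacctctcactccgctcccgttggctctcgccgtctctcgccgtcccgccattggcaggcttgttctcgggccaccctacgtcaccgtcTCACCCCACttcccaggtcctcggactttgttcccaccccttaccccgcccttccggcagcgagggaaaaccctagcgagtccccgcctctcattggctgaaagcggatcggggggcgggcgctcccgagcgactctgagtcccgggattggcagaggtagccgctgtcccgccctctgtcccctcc

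Genes that sense, import or move sterols were higher with miR-1 in 7 of 16 members (43.8%) and higher with miR-365 in 1 (median 0.24). Srebf2, the gene of SREBP-2 itself, read 12.02, 11.91 and 11.65 with miR-1, against 11.22, 11.45 and 11.13 with miR-365, a difference of 0.60 ± 0.09 (adjusted p = 2.89e-05), with an AllStar mean of 12.09. Scarb1, a receptor that takes up cholesterol esters from HDL, read 10.35, 10.34 and 10.40 with miR-1, against 9.54, 9.68 and 9.39 with miR-365, a difference of 0.83 ± 0.08 (adjusted p = 1.09e-07). Insig2, which holds SREBP in the endoplasmic reticulum, differed by 0.55 ± 0.07 (adjusted p = 7.26e-06) and Stard4, a cytosolic sterol carrier, by 0.42 ± 0.10 (adjusted p = 0.002). The groups did not overlap in these 4 genes. Srebf1 (0.09 ± 0.11, adjusted p = 0.674), Scap, the SREBP escort (0.08 ± 0.09, 0.631), and the sterol exporter Abca1 (0.20 ± 0.13, 0.331) were not called. The member higher with miR-365 was Mbtps1, a protease that cleaves SREBP (−0.20 ± 0.06, adjusted p = 0.012), whose adjusted p was 0.0656 without miR-365 replicate 1, and 2 members were higher with miR-365 without miR-365 replicate 2.

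In fatty acid synthesis 4 of 19 members were higher with miR-1 (21.1%) and 1 with miR-365 (2 without miR-1 replicate 2, without miR-365 replicate 1, with the AllStar values in the fit, without the dimmest 40% of genes or after a further quantile normalization), with a median of 0.03. The exception in size was Elovl6, which lengthens palmitate to stearate, with 10.29, 10.00 and 9.73 with miR-1, against 11.02, 11.16 and 11.20 with miR-365, a difference of −1.12 ± 0.11 (adjusted p = 1.33e-07). All 3 miR-1 arrays were low, and the AllStar mean was 11.20, close to the highest miR-365 value. Fads1, the delta-5 desaturase of polyunsaturated fatty acids, went toward miR-1 with 12.26, 12.10 and 11.91 with miR-1, against 11.40, 11.74 and 11.51 with miR-365, a difference of 0.54 ± 0.09 (adjusted p = 0.000181). Acss2, which makes acetyl-CoA from acetate in the cytosol, differed by 0.58 ± 0.14 (adjusted p = 0.0039) and Elovl1, which makes very long saturated chains, by 0.37 ± 0.05 (adjusted p = 2.46e-05).

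With both mimics most replication and mitosis genes had group means below AllStar, and the direct comparison placed the miR-1 arrays lower than the miR-365 arrays. The position of AllStar was not tested here. For the genes of DNA replication, 49 of 63 members were higher with miR-365 (77.8%) and 1 with miR-1, with a median difference of −0.54. The list averaged 9.52, 9.33 and 9.11 in the miR-1 arrays, against 9.82, 9.95 and 9.72 in the miR-365 arrays, with no overlap, and the AllStar mean was 10.21. The AllStar mean exceeded both mimic means in 56 of the 63 genes. Among the 6 arrays compared, miR-1 replicate 3 was the lowest for replication and, with a mean of 9.45, for mitosis, while the single myotube array was lower still, at 8.90 and 9.18.

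Of the licensing and origin genes, which include but are not limited to those that load the replicative helicase in G1, 21 of 28 were higher with miR-365 (75.0%) and 1, Orc3, with miR-1. Mcm3, a subunit of the MCM helicase, read 9.35, 9.30 and 8.71 with miR-1, against 10.01, 10.22 and 9.88 with miR-365, a difference of −0.92 ± 0.13 (adjusted p = 1.43e-05). Mcm4, another MCM subunit, read 10.34, 10.05 and 9.74 with miR-1, against 10.85, 10.98 and 10.78 with miR-365, a difference of −0.83 ± 0.11 (adjusted p = 1.02e-05). Mcm5 was an exception within the same complex, with 10.53, 10.24 and 9.46 with miR-1, against 10.10, 10.52 and 9.80 with miR-365, overlapping values and no call (difference −0.06 ± 0.22, adjusted p = 0.904), although its AllStar mean of 11.45 was above all 6 arrays. Orc1, the largest subunit of the origin recognition complex, differed by −0.81 ± 0.12 (adjusted p = 2.85e-05) and Gins1, a part of the active helicase, by −0.80 ± 0.13 (adjusted p = 7.89e-05). The call of Orc3, an origin recognition subunit (0.25 ± 0.08, adjusted p = 0.0317), was lost without miR-1 replicate 2 (0.0688), miR-1 replicate 3 (0.184), miR-365 replicate 1 (0.0802), miR-365 replicate 2 (0.0582) or miR-365 replicate 3 (0.0811).

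Fork and nucleotide genes were higher with miR-365 in 28 of 35 members (80.0%) and higher with miR-1 in 0. They include but are not limited to those that copy the DNA and supply its precursors. Pola1, the catalytic subunit of DNA polymerase alpha, read 8.43, 8.05 and 7.68 with miR-1, against 9.03, 9.41 and 8.92 with miR-365, a difference of −1.07 ± 0.16 (adjusted p = 2.48e-05). Rfc3, a clamp loader subunit, differed by −0.87 ± 0.17 (adjusted p = 0.000366), Pole2, a subunit of polymerase epsilon, by −0.84 ± 0.13 (adjusted p = 6.55e-05) and Slbp, the histone messenger RNA binding protein, by −0.73 ± 0.10 (adjusted p = 1.71e-05). Rrm2, the inducible subunit of ribonucleotide reductase, differed by 0.06 ± 0.12 and Dut, dUTPase, by 0.06 ± 0.11, and neither was called (adjusted p = 0.814 and 0.804).

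The Pola1 promoter is shown because Pola1 had the largest difference among called replication genes whose promoter holds an E2F-like match, at −138 to −131 relative to the start (GRCm38.p6, RefSeq, chrX:93632106-93632405, minus strand, printed 5′ to 3′, match in capitals as it lies on this strand). The E2F spellings searched on both strands were TTTCGCGC and TTTGGCGC, found in 15 of 53 replication promoters, in 5 of 60 mitosis promoters and in 1.31% of the promoters of all measured genes.
Pola1: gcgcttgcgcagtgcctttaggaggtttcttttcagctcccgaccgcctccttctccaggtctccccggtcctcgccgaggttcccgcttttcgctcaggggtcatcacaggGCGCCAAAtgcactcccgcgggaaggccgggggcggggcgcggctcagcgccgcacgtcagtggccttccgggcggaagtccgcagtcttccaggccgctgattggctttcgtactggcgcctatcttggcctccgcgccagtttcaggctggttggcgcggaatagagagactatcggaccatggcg

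Checkpoint and repair genes were higher with miR-365 in 24 of 32 members (75.0%) and higher with miR-1 in 0 (median −0.42). Chek1, the kinase that halts the cycle at stalled forks, read 8.47, 8.16 and 7.56 with miR-1, against 9.64, 9.83 and 9.50 with miR-365, a difference of −1.60 ± 0.15 (adjusted p = 8.83e-08), with an AllStar mean of 10.24. Chek2, the kinase activated by ATM at double-strand breaks, read 7.65, 7.62 and 7.61 with miR-1, against 8.70, 8.56 and 8.84 with miR-365, a difference of −1.07 ± 0.11 (adjusted p = 3.59e-07), and its AllStar mean of 8.30 lay between the groups. Brip1, a helicase that partners BRCA1, differed by −0.95 ± 0.14 (adjusted p = 3.37e-05) and Msh6, a mismatch recognition protein, by −0.93 ± 0.12 (adjusted p = 5.60e-06).

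Mitosis genes were higher with miR-365 in 50 of 69 members (72.5%) and higher with miR-1 in 0 (median −0.44), and AllStar exceeded both mimic means in 68. Without miR-1 replicate 3, or without miR-365 replicate 2, 2 members were higher with miR-1. The list averaged 9.89, 9.80 and 9.45 with miR-1, against 10.09, 10.40 and 10.05 with miR-365. The groups did not overlap, and miR-365 replicate 2 was the highest of the 6 arrays, below the AllStar values of 10.63, 10.64 and 10.65. Cenph, a kinetochore protein, read 7.18, 6.70 and 6.59 with miR-1, against 7.79, 8.19 and 7.81 with miR-365, a difference of −1.11 ± 0.17 (adjusted p = 3.08e-05). Kif15, a spindle kinesin, read 8.66, 8.34 and 7.80 with miR-1, against 9.16, 9.55 and 9.18 with miR-365, a difference of −1.03 ± 0.15 (adjusted p = 3.17e-05). Ccnb2, cyclin B2, a partner of CDK1, read 11.26, 11.35 and 10.75 with miR-1, against 11.84, 12.12 and 12.02 with miR-365, a difference of −0.87 ± 0.11 (adjusted p = 3.30e-06). Mybl2, B-Myb, a transcription factor of mitotic genes, differed by −0.91 ± 0.18 (adjusted p = 0.000599). Anln, the actin-binding protein anillin, Ube2c, the ubiquitin-conjugating enzyme of the anaphase-promoting complex, and Cdc25c, a phosphatase that activates CDK1, differed by −0.06 ± 0.08, −0.08 ± 0.07 and −0.00 ± 0.15 and were not called (adjusted p = 0.665, 0.529 and 0.993).

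**Figure D5:**
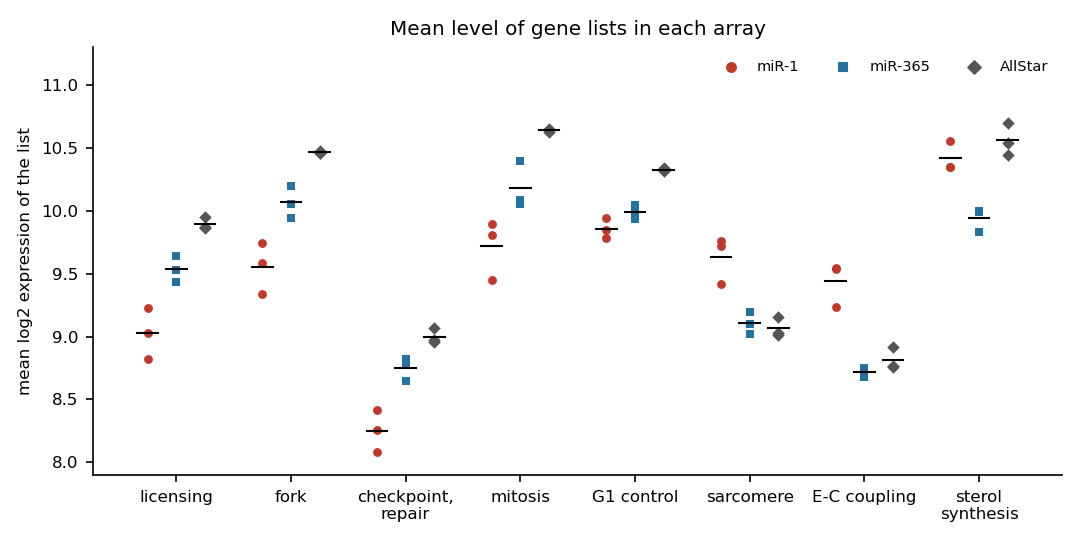
Mean log2 expression of 8 gene lists in each array, with red circles for miR-1, blue squares for miR-365, grey diamonds for the 3 AllStar values and black bars for group means. The miR-1 arrays are lowest for licensing, fork, repair and mitosis genes and highest for sarcomere and coupling genes, and the miR-365 arrays are lowest for sterol synthesis at 9.83 to 9.99.

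Genes of G1 control split, with 9 of 30 higher with miR-365 (30.0%) and 7 higher with miR-1 (23.3%), and a median of −0.08. Cdk6, the kinase that D-type cyclins activate, read 10.63, 10.43 and 10.54 with miR-1, against 11.15, 11.12 and 11.25 with miR-365, a difference of −0.64 ± 0.08 (adjusted p = 5.52e-06). Max, the partner of MYC, read 10.60, 10.28 and 10.21 with miR-1, against 11.53, 11.26 and 11.29 with miR-365, a difference of −0.998 ± 0.10 (adjusted p = 2.85e-07), and Tfdp2, a dimer partner of E2F proteins, differed by −0.79 ± 0.08 (adjusted p = 5.26e-07). Ccnd1, cyclin D1, went toward miR-1 with 11.63, 11.40 and 11.91 with miR-1, against 11.20, 11.09 and 11.04 with miR-365, a difference of 0.54 ± 0.16 (adjusted p = 0.0139), but it had 0.0976 without miR-1 replicate 3 and 0.0532 without miR-365 replicate 3. Its AllStar mean of 12.05 was above all 6 arrays. E2f6, a repressive E2F without a pocket protein domain, differed by 0.54 ± 0.14 (adjusted p = 0.0074). Ccnd3 (−0.04 ± 0.08) and Cdkn1b, the inhibitor p27 (0.10 ± 0.07), were not called (adjusted p = 0.818 and 0.422). The 7 genes higher with miR-1 were 4 without miR-1 replicate 2, 3 without miR-365 replicate 1 and 3 without miR-365 replicate 3.

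Genes that p53 is known to induce had 3 of 23 members higher with miR-1 (13.0%) and 6 higher with miR-365 (26.1%), with a median of 0.04, and in 21 of the 23 the AllStar mean lay below both mimic means. Sesn2, a stress-induced inhibitor of mTORC1, read 9.90, 10.11 and 10.40 with miR-1, against 10.94, 10.72 and 11.17 with miR-365, a difference of −0.81 ± 0.13 (adjusted p = 0.000103). Zmat3, an RNA-binding p53 target, differed by −0.55 ± 0.10 (adjusted p = 0.00014). Plk3, a stress-responsive polo-like kinase, went toward miR-1 with 11.07, 10.32 and 10.88 with miR-1, against 9.56, 9.39 and 9.58 with miR-365, a difference of 1.24 ± 0.21 (adjusted p = 0.0001). Sesn1, a relative of Sesn2, was also higher with miR-1, by 0.74 ± 0.14 (adjusted p = 0.000343). Mdm2, the p53 ubiquitin ligase, differed by 0.04 ± 0.14 and was not called (adjusted p = 0.903).

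Published targets of either microRNA, collected from the literature on several cell types, were looked up by name. No seed sites were searched here. Of 39 genes reported as miR-1 targets, 18 were higher with miR-365, that is lower with miR-1 (46.2%), and 9 were higher with miR-1 (23.1%), with a median difference of −0.21. Twf1, Notch3 and Pax7 are among the first group, with values given above. Gja1, connexin 43, the gap junction protein, read 9.93, 9.99 and 9.43 with miR-1, against 10.99, 11.11 and 11.16 with miR-365, a difference of −1.30 ± 0.11 (adjusted p = 1.31e-08). Met, the receptor of hepatocyte growth factor, read 9.57, 9.29 and 9.18 with miR-1, against 10.17, 10.27 and 10.27 with miR-365, a difference of −0.89 ± 0.09 (adjusted p = 2.67e-07). Ap1s1, an adaptor subunit of clathrin coats, read 10.54, 10.29 and 10.46 with miR-1, against 11.23, 11.13 and 11.21 with miR-365, a difference of −0.77 ± 0.08 (adjusted p = 2.70e-07). No miR-1 array reached a miR-365 array in these 3 genes. Hspd1, the mitochondrial chaperonin HSP60, differed by −0.50 ± 0.05 (adjusted p = 5.17e-07), Calm2, calmodulin 2, by −0.72 ± 0.12 (adjusted p = 0.000149), and Cdk9, the kinase of transcription elongation, by −0.57 ± 0.07 (adjusted p = 5.84e-06). Rheb, the activator of mTORC1, was higher with miR-1, with 11.12, 11.25 and 11.40 with miR-1, against 10.15, 10.34 and 10.01 with miR-365, a difference of 1.09 ± 0.10 (adjusted p = 7.53e-08). Its AllStar mean of 11.22 lay within the miR-1 values. Hspa4 (0.01 ± 0.06) and Fn1, fibronectin (−0.01 ± 0.05), were not called (adjusted p = 0.919 and 0.9).

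Of 21 genes reported as miR-365 targets, 5 were higher with miR-1 (23.8%), that is lower with miR-365, and 6 were higher with miR-365 (28.6%), with a median of −0.05. The 5 were 3 without miR-365 replicate 3. Nfib, a nuclear factor I transcription factor, read 10.81, 10.85 and 10.26 with miR-1, against 8.98, 9.75 and 9.02 with miR-365, a difference of 1.39 ± 0.20 (adjusted p = 2.03e-05), with an AllStar mean of 11.37 above all 6 arrays. Bcl2, the inhibitor of apoptosis, differed by 0.44 ± 0.09 (adjusted p = 0.0012), and Adamts1, a matrix protease, by 0.41 ± 0.10 (adjusted p = 0.0029). Cyb5d2, a cytochrome b5 domain protein, went toward miR-365, by −0.79 ± 0.10 (adjusted p = 2.68e-06). Sgk1 (−0.14 ± 0.30), Egr1 (−0.05 ± 0.23) and Usp33 (0.05 ± 0.07) were not called (adjusted p = 0.835, 0.934 and 0.693). Cyclin D1 and Bcl2 are in both target lists, as is Hdac4.

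In TGF-beta, BMP and IGF signalling 11 of 29 members were higher with miR-1 (37.9%) and 6 higher with miR-365 (20.7%), with a median of 0.03. Fst, follistatin, which binds myostatin and activin, read 10.54, 10.82 and 10.81 with miR-1, against 9.90, 9.52 and 9.15 with miR-365, a difference of 1.21 ± 0.16 (adjusted p = 1.01e-05). Bmp4, a bone morphogenetic protein, read 8.40, 8.19 and 8.64 with miR-1, against 7.10, 7.40 and 7.04 with miR-365, a difference of 1.23 ± 0.15 (adjusted p = 2.09e-06). Igf1r, the receptor of insulin-like growth factors, differed by 0.59 ± 0.08 (adjusted p = 8.45e-06). The receptors of TGF-beta went opposite ways. Tgfbr2 read 11.28, 11.31 and 11.65 with miR-1, against 10.87, 10.80 and 11.02 with miR-365, a difference of 0.52 ± 0.09 (adjusted p = 0.000258), while Tgfbr1 read 9.35, 8.83 and 9.07 with miR-1, against 10.13, 9.91 and 10.12 with miR-365, a difference of −0.97 ± 0.12 (adjusted p = 3.41e-06). Among the SMAD transducers, Smad3 was higher with miR-1 (0.75 ± 0.14, adjusted p = 0.000272) and Smad4 higher with miR-365 (−0.30 ± 0.07, adjusted p = 0.0021). Myostatin (Mstn) differed by −0.01 ± 0.11 and was not called (adjusted p = 0.961, limma). Its means, 4.95 with miR-1 and 4.97 with miR-365, lay below 6.64, the median level of probe sets with no listed gene. At that level a missing call says little about the gene.

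Matrix genes had 11 of 35 members higher with miR-1 (31.4%) and 5 higher with miR-365 (14.3%), with a median of 0.05. The 11 were 7 without miR-1 replicate 1 and 6 without miR-365 replicate 3, and the 5 were 3 without miR-1 replicate 3. Col8a1, a short-chain collagen, differed by 1.05 ± 0.17 (adjusted p = 6.08e-05), and Col12a1, a collagen of fibril surfaces, by 0.58 ± 0.08 (adjusted p = 7.51e-06). Dcn, decorin, a proteoglycan that binds collagen, read 7.66, 7.72 and 7.22 with miR-1, against 8.09, 9.04 and 9.10 with miR-365, a difference of −1.21 ± 0.23 (adjusted p = 0.000321), and Mmp9, gelatinase B, read 6.67, 6.90 and 6.78 with miR-1, against 8.47, 7.41 and 7.70 with miR-365, a difference of −1.08 ± 0.17 (adjusted p = 4.60e-05). Genes of the actin cytoskeleton and its regulator SRF split as well, with 9 of 34 higher with miR-1 (26.5%) and 7 higher with miR-365 (20.6%), and a median of −0.01. Ccn2, connective tissue growth factor, read 12.85, 12.43 and 12.51 with miR-1, against 12.25, 11.002 and 11.12 with miR-365, a difference of 1.14 ± 0.26 (adjusted p = 0.0024). Lasp1, an actin-binding LIM protein, read 11.19, 11.13 and 11.16 with miR-1, against 12.11, 11.89 and 11.96 with miR-365, a difference of −0.83 ± 0.07 (adjusted p = 3.52e-08). Cap1, which recycles actin monomers, differed by −0.46 ± 0.06 (adjusted p = 2.20e-06), Tmsb4x, thymosin beta 4, which holds actin monomers, by −0.58 ± 0.11 (adjusted p = 0.000351), and Cfl2, the muscle cofilin, by 0.42 ± 0.07 (adjusted p = 6.41e-05). Smooth muscle actin, Acta2 (0.01 ± 0.05), and filamin A, Flna (−0.02 ± 0.05), were not called (adjusted p = 0.949 and 0.891).

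Genes of glycolysis and the response to low oxygen lay toward miR-1, which was higher in 18 of 26 members (69.2%), with 0 higher with miR-365 and a median of 0.36. The list averaged 10.85, 10.93 and 11.03 with miR-1, against 10.52, 10.53 and 10.51 with miR-365, without overlap, and 10.72 with AllStar. Bnip3, a mitophagy receptor induced by HIF-1, read 10.99, 11.17 and 11.45 with miR-1, against 9.64, 9.65 and 9.53 with miR-365, a difference of 1.60 ± 0.12 (adjusted p = 6.28e-09). Bnip3l, its relative NIX, read 13.04, 13.05 and 13.14 with miR-1, against 12.30, 12.39 and 12.30 with miR-365, a difference of 0.75 ± 0.05 (adjusted p = 1.30e-09). Slc16a3, the lactate exporter MCT4, read 9.66, 10.26 and 10.16 with miR-1, against 8.67, 9.24 and 8.998 with miR-365, a difference of 1.06 ± 0.20 (adjusted p = 0.0003). The AllStar mean lay between the groups for Bnip3 (10.16) and close to the miR-1 arrays for Bnip3l (12.99) and Slc16a3 (9.91). Pdk1, a pyruvate dehydrogenase kinase, differed by 1.01 ± 0.18 (adjusted p = 0.000237) and Pfkfb3, which makes the activator of phosphofructokinase, by 0.64 ± 0.10 (adjusted p = 4.80e-05). The transcription factor gene Hif1a differed by 0.02 ± 0.09 and was not called (adjusted p = 0.907).

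Respiratory chain genes showed little. Of 33 members 6 were higher with miR-1 (18.2%) and 2 higher with miR-365, with a median of 0.03. The 6 were 3 without miR-1 replicate 2, without miR-365 replicate 1 or without miR-365 replicate 3, and the 2 were 1 without miR-365 replicate 2 or replicate 3. Uqcrc2, a core subunit of complex III, differed by 0.17 ± 0.05 (adjusted p = 0.0078) and Ndufs1, a complex I subunit, by −0.30 ± 0.07 (adjusted p = 0.003). In the unfolded protein and amino acid responses 10 of 30 members were higher with miR-1 (33.3%) and 3 higher with miR-365 (median 0.14). Atf6, the endoplasmic reticulum stress sensor and transcription factor, read 11.37, 11.24 and 11.43 with miR-1, against 10.27, 10.24 and 10.22 with miR-365, a difference of 1.11 ± 0.07 (adjusted p = 4.14e-10). Dnajb9, a chaperone of the endoplasmic reticulum, differed by 0.59 ± 0.12 (adjusted p = 0.001) and Creld2, a secreted stress protein, by 0.55 ± 0.10 (adjusted p = 0.000145). Trib3 (0.02 ± 0.11) and Herpud1 (−0.02 ± 0.08) were not called (adjusted p = 0.927 and 0.924).

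Interferon-induced genes, which double-stranded RNA can switch on, had 1 of 30 members higher with miR-1 and 2 higher with miR-365 (median −0.13). With only the 6 arrays of the comparison in the fit, 2 were higher with miR-1 and 9 higher with miR-365. The list averaged 7.03, 7.14 and 7.04 with miR-1, against 7.21, 7.26 and 7.36 with miR-365, and 7.16 with AllStar, and in 21 of the 30 members the brighter group mean exceeded 6.64, the median level of probe sets with no listed gene. Irf1, an interferon regulatory factor, was higher with miR-365, by −0.43 ± 0.12 (adjusted p = 0.0107, and 0.0745 with the mean of all its probe sets). Isg20, an exonuclease induced by interferon, was higher with miR-1, by 0.86 ± 0.25 (adjusted p = 0.0142, and 0.0589 without miR-1 replicate 3). The other member higher with miR-365 was Trim25, a ubiquitin ligase of RNA sensing (−0.54 ± 0.19, adjusted p = 0.0401), and 1 member was higher with miR-365 without any one of the arrays miR-1 replicate 2, miR-1 replicate 3 and miR-365 replicates 1, 2 and 3.

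The labelled cell type was checked against its markers. Of 10 myoblast markers all exceeded the level of probe sets with no listed gene, 3 were higher with miR-1, 3 higher with miR-365 and 4 not called, and their mean ran from 11.43 to 11.60 in the miR-1 arrays and from 11.47 to 11.61 in the miR-365 arrays. Fibroblast markers had 1 of 10 members called, Dcn, and averaged 7.78 to 8.01 with miR-1 and 7.93 to 8.13 with miR-365. Adipocyte markers had 1 of 9 called, Pparg (0.69 ± 0.18, adjusted p = 0.0053, and 0.0514 without miR-1 replicate 3), with Adipoq, Lep and Fabp4 below 6.64 in both group means and averages of 7.03 to 7.12 with miR-1 and 6.88 to 7.08 with miR-365. Immune and endothelial markers had 0 of 8 called by limma and averaged 6.29 to 6.45 with miR-1 and 6.38 to 6.41 with miR-365. The brighter group mean exceeded 6.64 in 6 of 10 fibroblast, 6 of 9 adipocyte and 2 of 8 immune and endothelial markers. The averages of different lists rest on different probe sets and cannot be set against each other.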

How the data were processed

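RNA of C2C12 cultures was measured on 29 Affymetrix arrays, which include technical repeats of the AllStar transfections. The deposited values are log2 expression per probe set, made by the authors with RMA in Affymetrix Expression Console 1.1, per the submitters' processing notes. RMA corrects background, scales arrays to 1 distribution and summarises probes, so a shift common to all genes is removed. The genome build and filters are not given in the sources used here.

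Probe sets were named from GEO's platform annotation. Of 35556, 21789 had 1 gene symbol, 1621 had several and 12146 had none listed. Of those with 1 symbol, 21698 matched RefSeq by Entrez identifier, and 0 symbols changed. Each of 19938 genes was represented by its brightest probe set, with 999 genes having more than 1. Array medians lay between 7.24 and 7.35, and 0 pairs of arrays held identical columns. The number of arrays limits precision.

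The contrast miR-1 minus miR-365 was fitted with limma 3.58.1 in R 4.3.3 (lmFit, eBayes with a variance trend) over 21 arrays of 7 mimic groups, tested 2-sided and adjusted by Benjamini-Hochberg over all genes. The scripts were tested on simulated data. The 6 AllStar arrays were averaged within transfections to 3 values. They, the myoblast and the myotube array were left out of the fit. Replicates are stated to be separate experiments.

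Genes were named from a pool fixed by rule, which holds the 20 largest differences in each direction among called genes with no overlap and a brighter mean above the median of probe sets with no listed gene (6.64). For each list the pool holds up to 6 called members per direction with the largest difference and up to 3 with the smallest, and all sterol, myogenic factor and reported target genes. The text names part of this pool, and which of its genes, and any gene outside it, were chosen after their values were seen. The members and the 33 lists (4 of them cell type markers) were chosen with earlier results of these data known. Alternatives changed the arrays in the fit, the scaling, the dim-gene filter, the probe set rule, the variance prior and the replicate block, and left out each array in turn. Promoters run from 250 bases before to 50 after the start.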

Additional observations from a re-analysis of the deposited data

How the results depend on the processing

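Neither overall count moved by 1.5 times under any alternative tried. Genes higher with miR-1 numbered 2028 and genes higher with miR-365 2195 with only the 6 arrays in the fit, and 2492 and 2869 with the AllStar values added. Without the dimmest 40% of genes they were 2373 and 2830, after a further quantile normalization 2468 and 2771, and after subtracting array medians 2408 and 2564. Leaving out 1 array gave 1956 to 2340 genes higher with miR-1 and 2238 to 2572 higher with miR-365. The quantile normalization and the subtraction of array medians moved the median difference over all genes by 0.0026 and 0.0070, and this shift was not computed for the other fits. Called members ran from 8 to 12 for sterol synthesis, 30 to 41 for sarcomere genes, 38 to 54 for replication and 34 to 54 for mitosis when 1 array was left out. Of 393 genes the naming rule covers, 269 were called, 215 of these kept their call in all 15 alternatives, and 54 lost it in at least 1. A change of sign was counted only for genes called in the main fit or in the alternative, and 0 had one. Genes that were not called could change sign, as Mcm5 did with differences from −0.29 to 0.25. Residuals of same-numbered miR-1 and miR-365 arrays correlated at 0.219, 0.305 and 0.057, all positive. Those of different numbers ran from −0.415 to 0.20, with −0.284, −0.269 and 0.179 among them. Since different numbers reached 0.20 and 0.179, above the 0.057, the main fit did not take the numbers as pairs. These few correlations cannot decide whether the numbers are pairs. With the replicate block the counts were 2874 and 3297. The block raised the myogenic factor calls to 8 higher with miR-1 and 8 higher with miR-365, the Notch pathway members higher with miR-365 to 10, the mitosis members higher with miR-1 to 2, and the members higher with miR-365 to 2 in each of the sterol uptake and fatty acid lists. It also called Myod1 (adjusted p = 0.0221, limma), Myog (0.0202), Mef2c (0.0203), Lss (0.0252) and Tm7sf2 (0.0386). For 92 of the genes higher with miR-1 and 61 of those higher with miR-365, both group means lay below the median level of probe sets with no listed gene, where signal over background limits what a difference can show.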
